A study of Gossypium hirsutum with 24 samples.

Results

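Cotton leaves that had been fed upon by cotton bollworm (CBW, the moth larva Helicoverpa armigera) for 12 h were compared with leaves fed upon for 6 h. The comparison uses 6 of the 24 arrays of the series, 3 for each time, and the 13807 probe sets that have values at both times, of 15615 with values at any time and 23972 on the array. All plants were Gossypium hirsutum cv. CCRI12, a cultivar of upland cotton, grown under 16 h of light and 8 h of dark and sampled at the stage of 6 to 7 leaves, 5 to 6 weeks after sowing. Whole leaves were taken, and each sample pooled the leaves of 3 plants, so that plants within a sample cannot be told apart. Feeding was continuous from its onset, so the 12 h leaves had been exposed longer as well as later. Undamaged plants harvested at 6 h and 12 h, with 3 arrays each, carry no larvae and are given beside the damaged leaves. The sources used here do not say at what hour feeding began. Nor do they say whether the 6 h and 12 h harvests fell at the same time of day, so within damaged leaves alone the length of feeding and the time of day cannot be told apart.

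A chewed leaf sets off signals within minutes, among them calcium influx, receptor kinases and jasmonates, fatty-acid-derived hormones that release defence genes from repressor proteins. Slower steps follow, such as the build-up of protease inhibitors, which hinder digestion in the insect gut, and of terpenoids, which in cotton include the toxic gossypol and many volatiles. Leaves also have a circadian clock, and many transcripts rise and fall over the day in a plant that nothing has eaten.

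The unit throughout is the signal intensity that the authors deposited for the Affymetrix Cotton GeneChip, and a change is the mean log2 intensity at 12 h minus that at 6 h. Median intensity over the 6 arrays lay between 358 and 386, and between 358 and 399 over all 24. Replicates of damaged leaves correlated at 0.969 to 0.975 at 6 h and at 0.976 to 0.988 at 12 h (Pearson r of log2 intensity, across probe sets). A call here is an adjusted p of at most 0.05 in limma, which gave all p-values below. An exact permutation test of 3 arrays against 3 cannot go below p = 0.1, so the text also says whether the arrays of the 2 times overlap. The array's probes can hybridise with the near-identical copies of a gene in the different genomes of this polyploid species, so a value may stand for more than one copy. Probe sets whose names end in s_at or x_at may also match other transcripts.

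From 6 h to 12 h of feeding, 2993 probe sets rose (21.7% of those tested) and 2598 fell (18.8%), 5591 in all (40.5%). Of these, 305 rose at least 4-fold (2.21%) and 149 fell at least 4-fold (1.08%), 454 in all (3.29%). Arrays of the 2 times did not overlap in 7301 probe sets (52.9%), and 5305 of these were also called. In undamaged leaves over the same interval, 2770 rose (20.1%) and 3230 fell (23.4%), 6000 in all (43.5%), with 323 rises (2.34%) and 256 falls (1.85%) of at least 4-fold (4.19% together), and the arrays of the times did not overlap in 47.4% of probe sets. The median change over all probe sets was 0.02 in damaged and -0.03 in undamaged leaves. The damaged and undamaged comparisons share no array.

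The change itself differed between damaged and undamaged leaves in 4263 probe sets (30.9%), by limma's test of the difference of the 2 changes. It was higher in damaged leaves in 2469 (17.9%) and lower in 1794 (13.0%). The difference was at least 4-fold in 456 probe sets (3.30%), higher in 197 (1.43%) and lower in 259 (1.88%). Both changes were called in 3048 probe sets, which are 54.5% of the damaged list and 50.8% of the undamaged list. They had the same direction in 2494 of these and opposite directions in 554. Of the 454 probe sets that changed at least 4-fold in damaged leaves, 361 (79.5%) were called in the same direction in undamaged leaves, 13 in the opposite one, and 80 were not called there. Across all probe sets the 2 changes correlated at r = 0.50, as a description in which probe sets are not independent points.

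**Figure D1:**
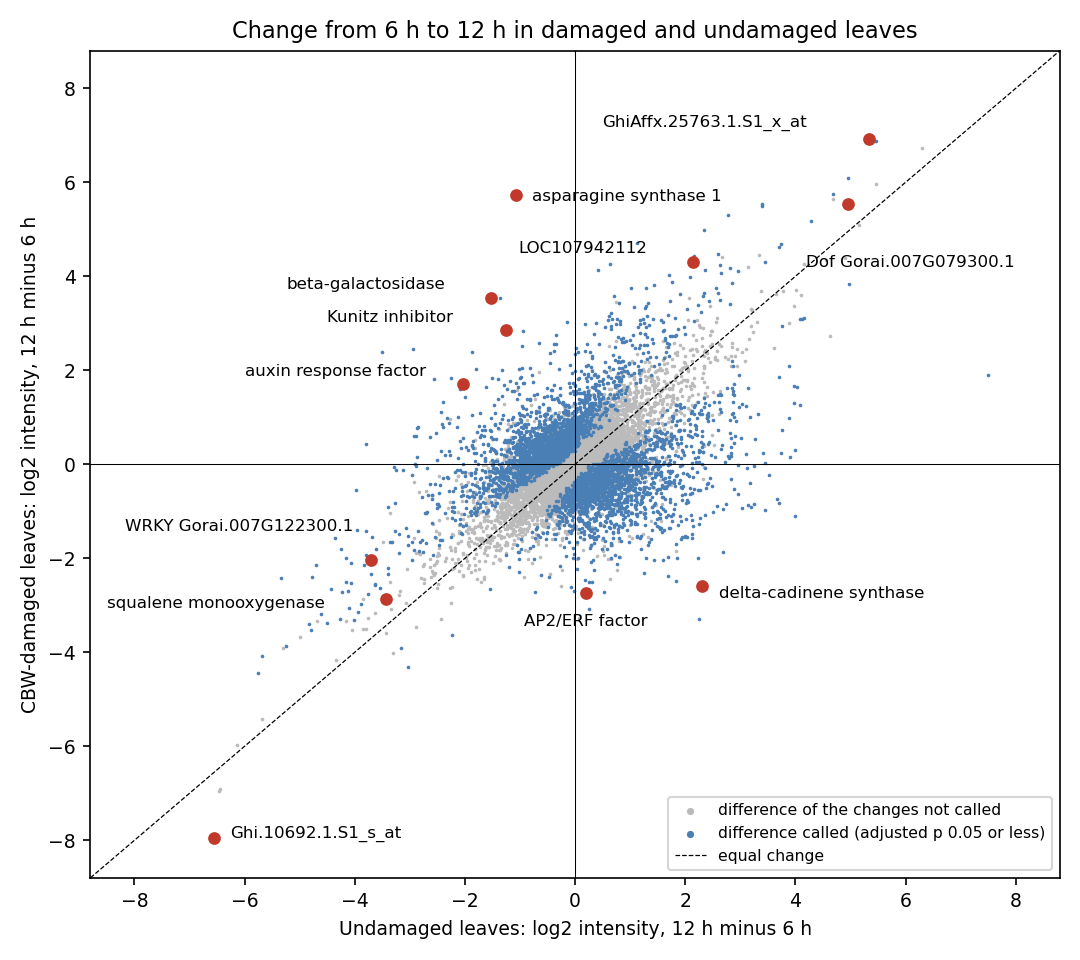
Change from 6 h to 12 h in CBW-damaged leaves (vertical axis, log2 intensity) against that in undamaged leaves (horizontal axis, log2 intensity), with 1 point per probe set (n = 13807) and a dashed line of equal change. Blue points are the 4263 probe sets whose 2 changes differed; the largest changes in damaged leaves lie in the corners where both kinds of leaf changed the same way, and asparagine synthase 1 lies far above the dashed line.

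The largest changes in damaged leaves were also found in undamaged leaves. Probe set Ghi.10692.1.S1_s_at, which has no name here, had intensities of 13335, 12043 and 14401 at 6 h of feeding and 57, 47.6 and 56 at 12 h. It fell by 7.95 on the log2 scale (SE, the standard error, 0.76, adjusted p = 1.17e-07 from limma), a 248-fold change, and in undamaged leaves it fell by 6.56. Ghi.10424.1.S1_s_at fell by 6.95 with damage and fell by 6.46 without it. In neither was the difference of the changes called (adjusted p = 0.34 and 0.615 from limma). In the other direction, GhiAffx.25763.1.S1_x_at had 33.9, 28.5 and 27.1 at 6 h and 3244, 3887 and 3703 at 12 h. It rose by 6.92 (SE 0.16, adjusted p = 3.46e-16 from limma), against 5.33 in undamaged leaves. GhiAffx.48034.1.S1_at rose by 6.88, against 5.46. With low intensities raised to a floor, the differences between damaged and undamaged leaves in these risers, 1.59 and 1.42, became -0.16 and -0.018. The arrays of the 2 times were far apart in all 4 probe sets, which were chosen after their values were seen.

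Several transcription factors of the Dof, CO-like and DBB families rose in both kinds of leaf. Names come from the study's tables and from the platform annotation, and otherwise a probe set goes by its family or pathway and by the gene of Gossypium raimondii, a related cotton, to which the study matched it (Gorai). A Dof zinc finger factor, Gorai.007G079300.1, had 86.7, 76.3 and 78.7 at 6 h and 3330, 4070 and 3785 at 12 h in damaged leaves, and rose by 5.53 (SE 0.13, adjusted p = 3.46e-16 from limma). In undamaged leaves it went from 127, 121 and 115 to 3148, 3846 and 4278, a rise of 4.95. Some Dof factors of Arabidopsis cycle over the day and hold back flowering. Another, Gorai.008G193700.1, had 49, 33.4 and 26.1 at 6 h and 1124, 1127 and 1086 at 12 h. It rose by 4.99 in damaged and 2.34 in undamaged leaves, and the changes differed by 2.65 (SE 0.28, adjusted p = 5.32e-06 from limma). Its 3 damaged arrays lay below the undamaged ones at 6 h (168, 251 and 212) and among them at 12 h (923, 1097 and 1149). Gorai.010G159300.1, a further Dof factor, rose by 2.22 and by 2.58 in undamaged leaves.

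CO-like factors, relatives of CONSTANS, which in Arabidopsis reads day length, rose as a group. Of 9 measured probe sets for 7 genes, 8 rose (88.9%, beside 21.7% of all probe sets) and 1 fell. Their median was 2.13, beside 1.01 in undamaged leaves, where 7 rose. This list, like the other family, hormone, stress and pathway lists below, was drawn up by the study with responses of these same samples in view, so its direction is not independent evidence. Gorai.004G102000.1 had 162, 144 and 128 at 6 h and 1764, 1834 and 1823 at 12 h, and rose by 3.65 (SE 0.14, adjusted p = 3.59e-13 from limma), against 2.33 in undamaged leaves. Gorai.010G245200.1 rose by 2.65 against 1.01. In both the change was larger with damage, by 1.31 (adjusted p = 0.000149 from limma) and by 1.64 (adjusted p = 1.19e-05 from limma). Damaged arrays of both lay below the undamaged ones at both times, with 6 h means of 145 and 407 beside 578 and 1783. The exception was Gorai.002G022300.1, chosen after its values were seen, which fell by 1.36 in damaged and by 3.08 in undamaged leaves, a difference of 1.71 that became -1.25 with low intensities raised to a floor. The related DBB factor Gorai.006G229300.1, with a pair of B-box domains, went from 2047, 1851 and 1804 to 8108, 7867 and 8299, a rise of 2.09 against 1.14. Its damaged arrays lay below the undamaged ones at both times.

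Other factors moved in both kinds of leaf. MYB_related Gorai.006G178000.1, of a family that holds core clock genes in Arabidopsis, had 56.5, 40.5 and 54.7 at 6 h and 998, 1026 and 1149 at 12 h. It rose by 4.40 in damaged and 4.91 in undamaged leaves, and the difference of the changes was not called (adjusted p = 0.234 from limma). The bHLH factor Gorai.008G106900.1 rose by 2.24 against 1.30, with damaged arrays below the undamaged ones at both times. WRKY Gorai.007G122300.1 fell by 2.03 in damaged leaves and by 3.71 in undamaged ones, from 561, 544 and 528 to 148, 133 and 119 with damage. All 3 of its probe sets fell, by 1.81 to 2.03. Its damaged arrays lay below the undamaged ones at 6 h and above them at 12 h.

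Among probe sets named only by a gene identifier of the annotation, LOC107942112 had 763, 613 and 721 at 6 h and 12558, 14428 and 14500 at 12 h. It rose by 4.31 (SE 0.11, adjusted p = 5.47e-16 from limma), against 2.14 in undamaged leaves, where it already stood at 3325 to 4585 at 6 h. LOC107928645 fell by 3.91 with damage and fell by 5.31 without, and LOC107938326 fell by 3.58 with damage and fell by 3.44 without. LOC107907099 fell by 4.16, from 426, 2185 and 417 to 38.5, 48.4 and 36.7, and with the second 6 h array left out it fell by 3.36. These 4 were chosen after their values were seen. Squalene monooxygenase, an enzyme of sterol synthesis, went from 679, 415 and 467 to 61.4, 70.5 and 77.4 and fell by 2.87 (SE 0.35, adjusted p = 2.88e-06 from limma). In undamaged leaves it fell by 3.44, and the difference of the changes was not called (adjusted p = 0.41 from limma).

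**Figure D2:**
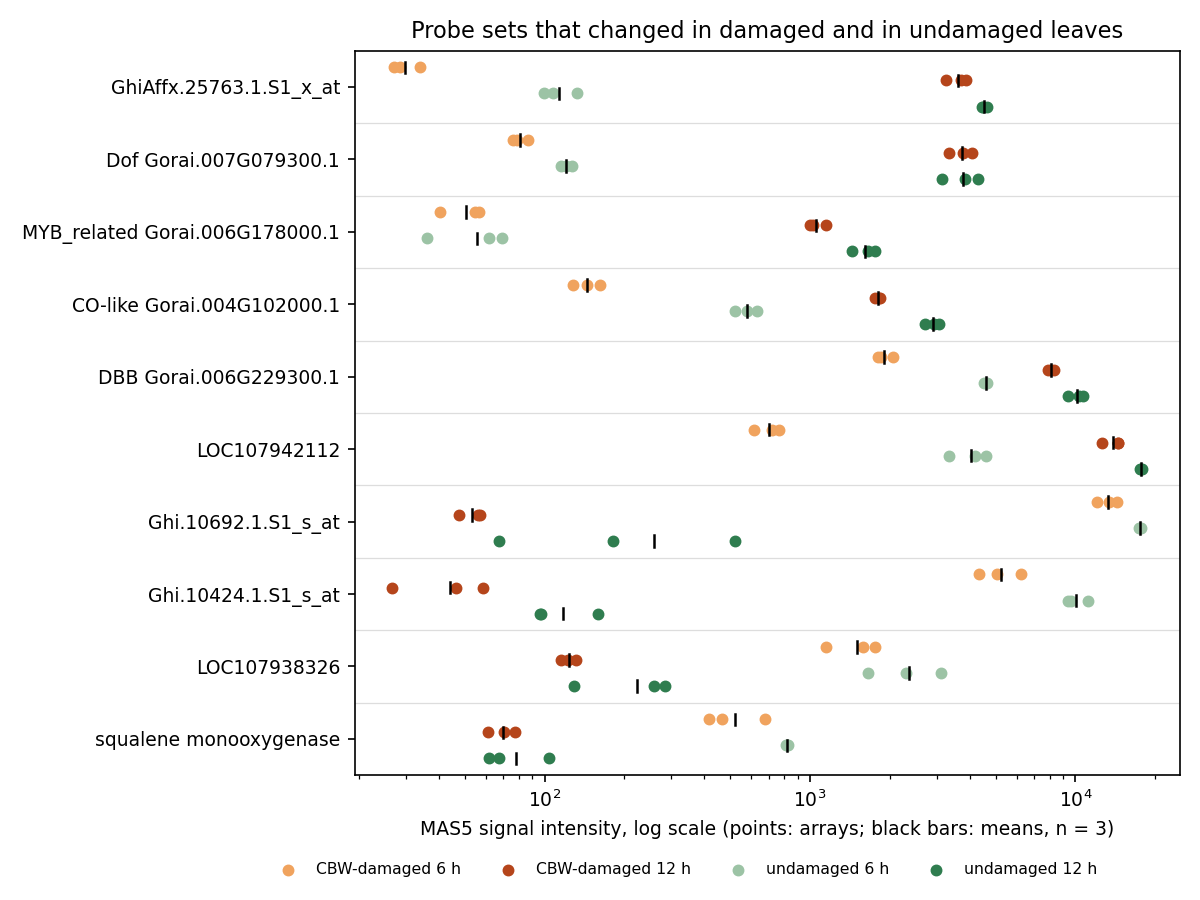
Signal intensity (log axis) of 10 probe sets that changed in damaged and in undamaged leaves, with 1 point per array and black bars for the means of 3 arrays. The times separate in both kinds of leaf, and for LOC107942112 the damaged arrays at 6 h (613 to 763) lie below the undamaged ones (3325 to 4585).

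A second set of genes rose in damaged leaves and had no such rise in undamaged ones, led by genes of nitrogen metabolism. Asparagine synthetases make asparagine, the amide in which many plants store and carry nitrogen. Glutamine-dependent asparagine synthase 1 had 98.6, 154 and 40.5 at 6 h of feeding and 5617, 3963 and 4108 at 12 h. It rose by 5.73 (SE 0.53, adjusted p = 8.76e-08 from limma), a 53-fold change. In undamaged leaves it had 47.6, 171 and 199 and then 83.8, 38.7 and 52.7, and was not called (-1.08, adjusted p = 0.112 from limma). The changes differed by 6.81 (SE 0.76, adjusted p = 7.77e-06 from limma). Later in feeding its mean intensity was 1210 at 24 h and 3571 at 48 h. Asparagine synthetase Gorai.006G105200.1 went from 166, 216 and 126 to 3836, 2574 and 3278, and all 4 of its probe sets rose, by 3.08 to 4.27. Its mean in undamaged leaves was 95.6 at 6 h and 135 at 12 h.

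Of 12 measured probe sets for 7 genes of nitrogen assimilation, picked by their names, 8 rose (66.7%, beside 21.7% of all probe sets) and 1 fell. The change was higher with damage in 6 (50%, beside 17.9%) and lower in none (beside 13.0%). The 8 rises stand for 4 genes, since 4 of them, and 4 of the 6 higher changes, are probe sets of Gorai.006G105200.1. Their median was 1.55, beside 0.31 in undamaged leaves. The number of rises was 5 without the third 6 h array. Glutamate dehydrogenase Gorai.004G244400.1, which releases or binds ammonium at glutamate, had 619, 1764 and 452 at 6 h and 4412, 2256 and 3430 at 12 h. It rose by 2.04 (adjusted p = 0.00895 from limma), or 1.63 without the third 6 h array (adjusted p = 0.0565), and was chosen after its values were seen. The fall was in NADP-specific glutamate dehydrogenase Gorai.004G129900.1, which fell by 2.28 in damaged and fell by 2.11 in undamaged leaves.

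The other large rises with damage were in genes of several pathways. A short chain alcohol dehydrogenase annotated as xanthoxin dehydrogenase, a step of abscisic acid synthesis, had 105, 204 and 55.8 at 6 h and 2383, 3223 and 2773 at 12 h. It rose by 4.71 (SE 0.54, adjusted p = 1.21e-06 from limma), and the change differed from that without damage by 3.57. Its mean was back at 159 at 24 h and 190 at 48 h. Anthranilate synthase alpha subunit 1, which starts tryptophan synthesis, went from 937, 638 and 437 to 3906, 6982 and 7572 and rose by 3.21, with a difference of the changes of 2.56. Arginine decarboxylase, which leads to polyamines, went from 892, 727 and 205 to 3436, 5467 and 3481 and rose by 2.98, or by 2.32 without the third 6 h array. Myo-inositol oxygenase 1, which feeds inositol into cell wall sugars, rose by 2.98, to a 12 h mean of 796 with damage and 728 without. At 6 h its damaged arrays (73.25, 97.6 and 138) lay below the undamaged ones (345, 617 and 324).

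Single genes that act on cell walls, on chlorophyll and on starch rose. Beta-galactosidase Gorai.001G011600.1, of enzymes that trim galactose from wall polymers and other sugars, had 133, 318 and 83.8 at 6 h and 1997, 1368 and 2069 at 12 h. It rose by 3.55 with damage and fell by 1.52 without, and the changes differed by 5.07 (SE 0.70, adjusted p = 5.71e-05 from limma). Beta-galactosidase 1 Gorai.009G140800.1 rose by 3.00. Expansin-like B1, of a family of wall proteins, went from 538, 1860 and 651 to 5130, 4346 and 5939 and rose by 2.56, while its undamaged arrays stayed between 16.1 and 39.8. Of the 12 measured probe sets for wall-loosening proteins, 2 rose (16.7%, beside 21.7% of all probe sets), both of them for this gene, and 1 fell, with a median of -0.28. Non-yellowing 1, named for a gene of chlorophyll breakdown and chosen after its values were seen, rose by 2.37, from a mean of 411 to 1953. Beta-amylase 1, which breaks down starch, rose by 1.09. A MATE efflux family protein, a transporter, rose by 3.45 over 6 h arrays of 204, 1340 and 79. That rise was 4.59 without the second of these arrays and 2.54 without the third, and the difference from undamaged leaves was not called (adjusted p = 0.118 from limma).

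Protease inhibitors rose and a chitinase fell. A Kunitz family trypsin and protease inhibitor had 409, 921 and 400 at 6 h of feeding and 3754, 3484 and 4405 at 12 h, and rose by 2.86 (SE 0.71, adjusted p = 0.00351 from limma). Undamaged arrays stood at 141, 391 and 569 and then at 293, 63.9 and 124, and the changes differed by 4.11 (adjusted p = 0.0051 from limma). Its mean in damaged leaves went on to 4066 at 24 h and 9410 at 48 h. A 21 kDa trypsin inhibitor, Gorai.011G254900.1, rose by 2.07, or by 2.69 without the first 6 h array. Its other probe set had 0.62 and was not called. Carrot EP3-3 chitinase fell by 1.31, from 3212, 4390 and 6141 to 2036, 1165 and 2383, which is still above the undamaged arrays (73.3 to 195 over both times). Of the 7 measured probe sets for protease inhibitors and chitinases, 3 rose (42.9%, beside 21.7% of all probe sets) and 1 fell (14.3%, near 18.8%).

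Genes that fell from 6 h to 12 h with damage included several that rose without it. An AP2/ERF factor, Gorai.001G019100.1, had 1172, 1502 and 2399 at 6 h and 251, 118 and 484 at 12 h. It fell by 2.74 (SE 0.40, adjusted p = 2.41e-05 from limma), while undamaged arrays stayed between 15.5 and 24.7, and the changes differed by -2.94. Its damaged arrays stood above every undamaged array at both times. The (+)-delta-cadinene synthase Gorai.013G164900.1, of the step that leads to gossypol and related sesquiterpenes, went from 891, 936 and 1446 to 317, 125 and 142, a fall of 2.58. Without damage it rose by 2.31, from 34.9, 66.5 and 38.8 to 323, 170 and 200, and the changes differed by -4.89 (SE 0.66, adjusted p = 4.72e-05 from limma). At 12 h the damaged and undamaged arrays of this probe set overlapped.

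Several single genes of calcium handling and membrane transport fell. Autoinhibited calcium ATPase, a pump that clears calcium from the cytosol, had 577, 854 and 2271 at 6 h and 320, 183 and 279 at 12 h, and fell by 2.03 where undamaged leaves rose by 1.43. Calcium-binding protein PBP1-like, chosen after its values were seen, fell by 1.97 where undamaged leaves rose by 1.70. A calmodulin-binding family protein fell by 2.00, from 3894, 3575 and 6052 to 1173, 958 and 1161, with no call in undamaged leaves (-0.04). The differences of the changes were called in all 3, at -3.47, -3.66 and -1.96. Pleiotropic drug resistance 12, an ABC transporter, fell by 2.10, and its difference from undamaged leaves was not called (adjusted p = 0.203 from limma).

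Among the 31 measured probe sets for calcium signalling proteins and receptor kinases, picked by name, 7 fell (22.6%, near the 18.8% of all probe sets) and 2 rose (6.45%, beside 21.7%), with a median of -0.38. In undamaged leaves 14 of the 31 rose and 1 fell, with a median of 0.61, where 20.1% of all probe sets rose and 23.4% fell. The change was lower with damage in 14 (45.2%, beside 13.0% of all probe sets) and higher in 1 (3.23%, beside 17.9%). The 14 became 9 without the second damaged array of 12 h, and 8 without the third damaged array of 6 h or without the first undamaged array of 12 h. Receptor-like kinase Gorai.008G006500.1 had 242, 136 and 265 at 6 h and 85.4, 73.6 and 99.2 at 12 h. It fell by 1.27 with damage and rose by 1.01 without damage. Its undamaged arrays lay between 20.9 and 70.1 over both times. These and its damaged arrays of 12 h are low intensities, below the 20th percentile of each of these arrays. A calcium-dependent protein kinase, Gorai.004G123900.1, fell by 0.86 and rose by 0.61 without damage. Damaged arrays of both kinases stood above the undamaged ones at both times.

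The remaining named falls were of mixed kinds. Bacterial-induced peroxidase went from 118, 264 and 281 to 44.7, 24.6 and 57.6, a fall of 2.37, and rose by 1.69 without damage. Basic 7S globulin, a protein first known from soybean seeds, went from 1486, 1830 and 2474 to 538, 261 and 387, a fall of 2.32, and rose by 1.26 without damage. Over both times the undamaged arrays lay between 9.16 and 54.7 for the peroxidase and between 13.7 and 62.4 for the globulin. These are low intensities, below the 20th percentile of every undamaged array of 6 h and 12 h (108 to 120). A nucleotide-diphospho-sugar transferase superfamily protein fell by 2.03, with 0.32 in undamaged leaves, which was not called. A RING/FYVE/PHD zinc finger-containing protein fell by 2.11 with damage and fell by 2.15 without. Of the 12 measured peroxidases and laccases, 2 fell (16.7%, near the 18.8% of all probe sets) and none rose, though 2 were higher at an unadjusted p under 0.05 in limma.

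**Figure D3:**
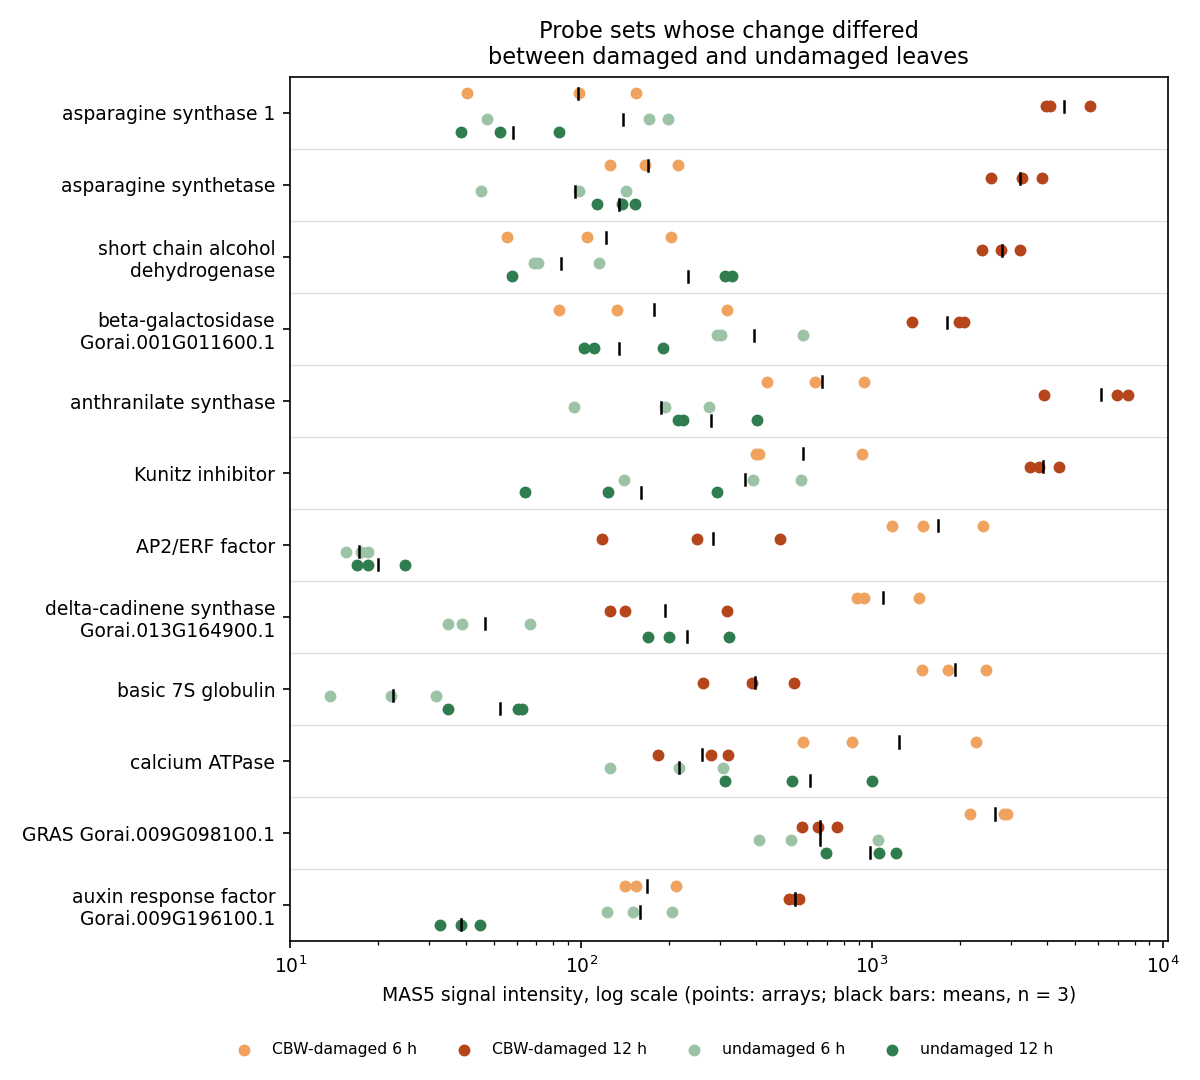
Signal intensity (log axis) of 12 probe sets whose change from 6 h to 12 h differed between damaged and undamaged leaves, with 1 point per array and black bars for the means of 3 arrays. In asparagine synthase 1 the damaged arrays at 12 h (3963 to 5617) lie above the 9 others, and in the AP2/ERF factor all damaged arrays lie above all undamaged ones at both times.

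Transcription factor families differed in direction. WRKY factors, which bind W-box promoter elements of defence genes, had 49 measured probe sets for 30 genes, of which 13 fell (26.5%, beside 18.8% of all probe sets) and 4 rose (8.16%, beside 21.7%). In undamaged leaves 16 rose and 4 fell, and the change was lower with damage in 17 (34.7%, beside 13.0%) and higher in 4. The 13 falls became 8 without the second array of 12 h and 22 in a fit of only the 6 damaged arrays. WRKY Gorai.013G008300.1 had 358, 272 and 186 at 6 h and 89.4, 48.7 and 54.3 at 12 h and fell by 2.09, with 0.28 in undamaged leaves, which was not called. The difference of these changes, -2.37, became -1.49 and lost its call with low intensities raised to a floor (adjusted p = 0.0516 from limma). Of 63 ERF probe sets, which stand for ethylene-responsive and related factors, 14 fell (22.2%, near the 18.8% of all probe sets) and 8 rose (12.7%), and the falls became 9 without the second array of 12 h. ERF Gorai.007G046100.1 fell by 2.19, and by 2.63 in undamaged leaves.

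HD-ZIP factors, which take part in leaf development and the response to water and light, went the other way: of 14 measured, 9 rose (64.3%) and 1 fell. The change was higher with damage in 8 (57.1%) and lower in none. With low intensities raised to a floor, the rises were 5 and the higher changes 4. With centred arrays, or without the first undamaged array of 12 h, the change was lower in 2. HD-ZIP Gorai.007G029200.1 had 104, 111 and 129 at 6 h and 576, 409 and 345 at 12 h. It rose by 1.92, while undamaged arrays lay between 761 and 1254 at both times, above every damaged one. Of the 11 Dof probe sets, 7 rose (63.6%, beside 21.7% of all probe sets) and 2 fell (18.2%, near 18.8%). In undamaged leaves 6 of them rose and 4 fell. Of 5 Trihelix probe sets, 4 rose (80%) and none fell. Of 12 probe sets for auxin response factors (ARF), 5 rose (41.7%) and 1 fell (8.33%). Their change was higher with damage in 7 (58.3%, beside 17.9%). Among 30 NAC, 33 C2H2, 33 bHLH, 35 MYB and 19 GRAS probe sets, rises were 7, 7, 10, 8 and 6 (21.2% to 31.6% of each, beside 21.7% of all probe sets) and falls were 4, 7, 6, 1 and 2 (2.86% to 21.2%, beside 18.8%). NAC Gorai.012G125500.1 rose by 1.48 and fell by 0.75 without damage, and C2H2 Gorai.003G016200.1 rose by 1.51, with 0.04 without damage.

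**Figure D4:**
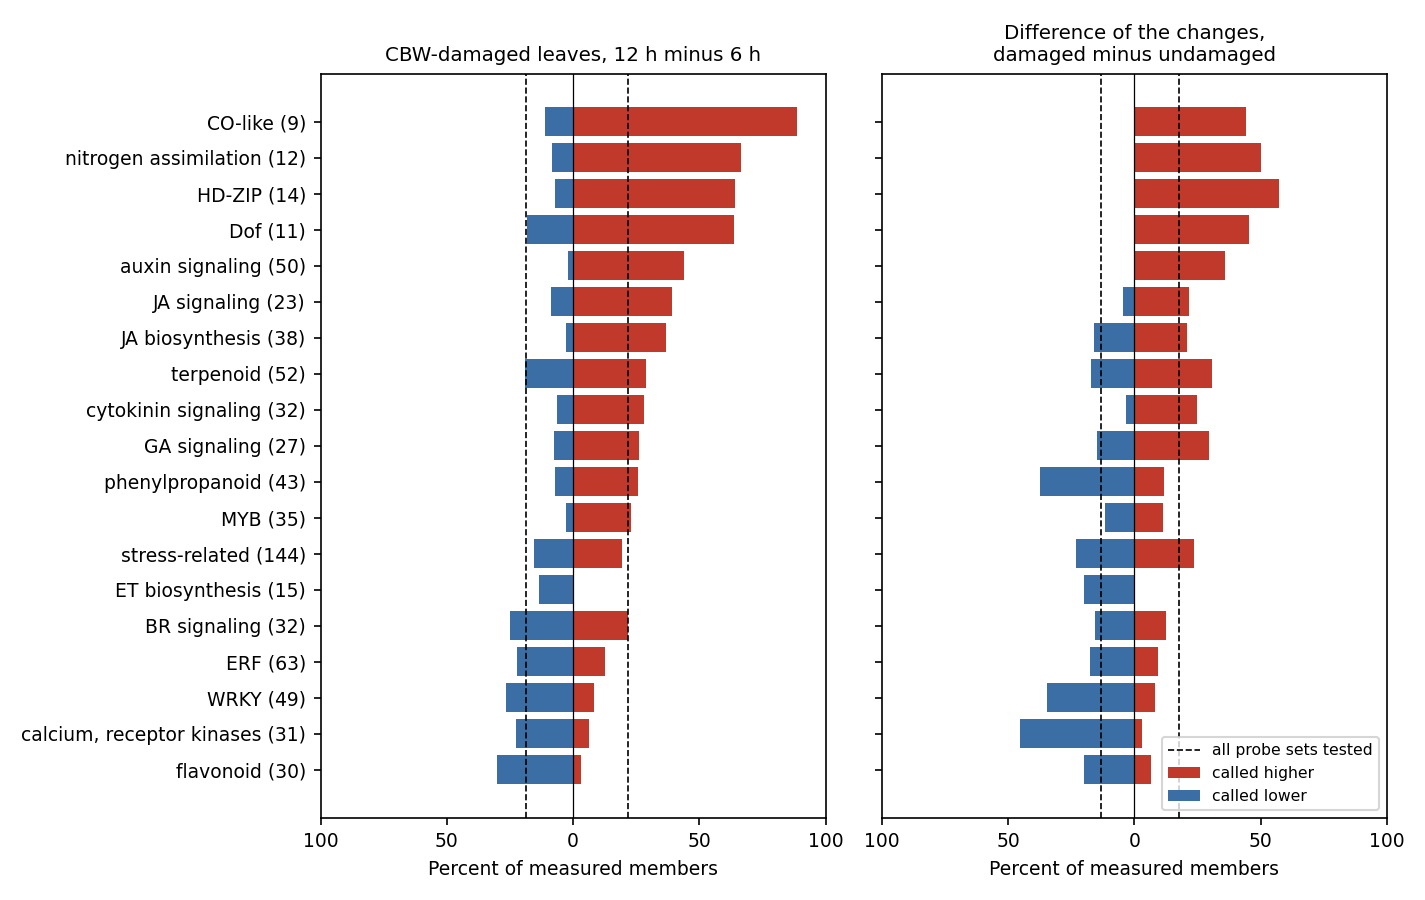
Percent of measured members called higher (red, to the right) and lower (blue, to the left) in each list, with the number of measured probe sets in brackets, for the change in damaged leaves (left panel) and for the difference of the changes (right panel). Dashed lines give the percent over all probe sets tested (21.7 higher and 18.8 lower on the left, 17.9 and 13.0 on the right); CO-like factors lie highest among rises on the left, and calcium and receptor kinases lowest on the right.

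Auxin signalling was the longest hormone list and had the largest number of rises, though by share the shorter lists of cytokinin and gibberellin biosynthesis stood higher (50% each). Auxin steers growth through response factors and their repressors. Of 50 measured probe sets for 40 genes, 22 rose (44%, beside 21.7% of all probe sets) and 1 fell, with a median of 0.53 beside -0.22 in undamaged leaves, where 10 rose and 15 fell. The change was higher with damage in 18 (36%, beside 17.9% of all probe sets) and lower in none (beside 13.0%). Auxin response factor Gorai.009G196100.1 had 212, 154 and 141 at 6 h and 519, 563 and 546 at 12 h, and rose by 1.71 (SE 0.22, adjusted p = 6.14e-06 from limma). Without damage it fell by 2.03, from 151, 206 and 123 to 38.6, 32.7 and 44.8, and the changes differed by 3.73 (adjusted p = 6.45e-07 from limma). Gorai.004G044200.1 of the same list went from 365, 231 and 182 to 1759, 2130 and 2052, a rise of 2.99 against 1.17. Its undamaged means were 1615 at 6 h and 3656 at 12 h. Gorai.005G046500.1 rose by 2.02 against 1.65. In both genes the damaged arrays lay below the undamaged ones at both times. GH3 indole-3-acetic acid-amido synthetase, which joins auxin to amino acids, rose by 1.84 against 0.65.

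A part of the jasmonate genes rose, and 6 h levels stood above those of undamaged leaves in some and not in others. Of 38 measured biosynthesis probe sets for 22 genes, 14 rose (36.8%, beside 21.7% of all probe sets), 1 fell (2.63%) and 23 were not called. Their median was 0.26, and the change was higher with damage in 8 (21.1%, beside 17.9%) and lower in 6 (15.8%, beside 13.0%). Of 20 probe sets for jasmonate synthesis and its repressors picked by name, 3 rose (15%), 1 fell (5%) and 16 were not called. The median of these was -0.30, and the change was higher with damage in 1 and lower in 4. Jasmonate O-methyltransferase (JMT), which makes the volatile methyl jasmonate, has 2 probe sets for Gorai.008G065900.1 here, and the damaged arrays of 6 h stood above the undamaged ones in both. One had 126, 122 and 71.9 at 6 h and 845, 951 and 956 at 12 h and rose by 3.15 (SE 0.33, adjusted p = 2.29e-06 from limma), with a difference from undamaged leaves of 2.52. The other had 4937, 4054 and 2174 and then 9541, 10956 and 11216, and rose by 1.58 (adjusted p = 0.0249), which was no longer called without the third 6 h array (1.24), without the second array of 12 h (1.56) or without the third one (1.54) (adjusted p = 0.122, 0.0635 and 0.0635 from limma). The difference of the changes for this second JMT probe set, 1.34, was not called (adjusted p = 0.189 from limma). A biosynthesis gene that the sources leave unnamed, Gorai.008G044100.1, rose by 2.18 with damage and 1.27 without. Its difference of the changes, 0.90, was not called (adjusted p = 0.109 from limma). Gorai.002G043200.1 rose by 1.85 with damage and 1.83 without. At 6 h the damaged arrays of the latter overlapped the undamaged ones.

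Lipoxygenases open the path to jasmonates and green leaf volatiles. All 4 probe sets of lipoxygenase Gorai.009G071200.1 rose, by 0.56 to 0.81. Lipoxygenase 3, chosen after its values were seen, had 8478, 8719 and 12134 at 6 h and 7998, 8114 and 9014 at 12 h, which overlap, and it was not called (-0.21, adjusted p = 0.557 from limma). Undamaged leaves rose by 1.51 from a mean of 467 to 1400, and the changes differed by -1.72. Jasmonate-zim-domain protein 3, a repressor of the pathway, rose by 0.76, from 5805, 5716 and 3982 to 7956, 8914 and 9050. In undamaged leaves it rose by 1.47. The difference of the changes, -0.71, was not called (adjusted p = 0.0559 from limma), but was with centred arrays (-0.77, adjusted p = 0.0418). The 2 probe sets of this gene disagreed in that difference (-0.71 and 0.67), though both rose with damage. Among 23 jasmonate signalling probe sets, 9 rose (39.1%, beside 21.7% of all probe sets) and 2 fell (8.70%, beside 18.8%). Of these, Gorai.004G212200.1 rose by 1.67 with damage and 2.01 without. Its damaged 6 h arrays of 159, 158 and 104 lay below the undamaged 335, 293 and 232.

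Gibberellins, which drive growth, had few genes measured. Of 4 biosynthesis probe sets, 2 rose and 2 fell (50% each, beside 21.7% and 18.8% of all probe sets). Gibberellin 3-beta-dioxygenase, which makes the active hormones, had 149, 169 and 132 at 6 h and 233, 263 and 249 at 12 h. It rose by 0.73, and fell by 1.54 without damage (difference 2.28, SE 0.17, adjusted p = 2.01e-07 from limma). Its undamaged arrays lay between 19.3 and 63.25 over both times, below the 20th percentile of each of these arrays. KAO (ent-kaurenoic acid oxidase), an earlier step, fell by 1.09 and rose by 0.46 without damage. A GRAS factor listed as a DELLA, the class of gibberellin repressors, had 2849, 2181 and 2911 at 6 h and 757, 574 and 653 at 12 h. It fell by 2.00, with a difference from undamaged leaves of -2.66. Of 27 gibberellin signalling probe sets, 7 rose (25.9%, near 21.7%) and 2 fell (7.41%, beside 18.8%).

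The lists for the other hormones were each shorter than that of auxin signalling. Of 15 ethylene biosynthesis probe sets, 2 fell (13.3%, beside 18.8% of all probe sets) and none rose (beside 21.7%). At an unadjusted p under 0.05 in limma there were 0 rises as well. In undamaged leaves 6 rose and 1 fell, and the change was lower with damage in 3 (20%, beside 13.0%). Ethylene signalling had 4 rises (25%, near 21.7%) and no fall of 16. Abscisic acid biosynthesis had 3 rises of 9 (33.3%), and its signalling 6 rises (40%) and 1 fall (6.67%) of 15. The fall was in Gorai.013G230300.1, by 2.24 with damage and 1.81 without. Cytokinin biosynthesis had 5 rises (50%) and 1 fall (10%) of 10, and cytokinin signalling 9 (28.1%) and 2 (6.25%) of 32. Brassinosteroid signalling had 7 rises (21.9%, near 21.7%) and 8 falls (25%, beside 18.8%) of 32. Salicylic acid signalling had 1 fall among 4 (25%). None of the 3 probe sets for its biosynthesis was called by limma, and 0 had an unadjusted p under 0.05.

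Secondary metabolism was split. Of 43 phenylpropanoid probe sets for 26 genes, 11 rose (25.6%, near the 21.7% of all probe sets) and 3 fell (6.98%, beside 18.8%). Their median was 0.06, whereas in undamaged leaves 26 rose and 3 fell, with a median of 1.17. The change was lower with damage in 16 (37.2%, beside 13.0%) and higher in 5 (11.6%, beside 17.9%). The 5 became 2 without the third damaged or the first undamaged array of 12 h or with centred arrays, and 3 without the second damaged array of 12 h, the first or the third array of 6 h of either kind of leaf, or the second undamaged array of 12 h. Phenylalanine ammonia-lyase, the entry enzyme, had 532, 585 and 699 at 6 h and 997, 875 and 806 at 12 h in damaged leaves, without overlap but not called (0.56, adjusted p = 0.326 from limma, or 0.0231 in a fit of only the 6 damaged arrays). In undamaged leaves it rose by 2.83, from 76.2, 64.6 and 101 to 1082, 331 and 501. The listed gene Gorai.008G022800.1 rose by 1.57 against 2.87, with a difference of -1.31, and Gorai.011G130700.1 rose by 1.80 against 1.96.

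Flavonoids, which include anthocyanins and tannins, had 30 measured probe sets for 19 genes. Of these, 9 fell (30%, beside 18.8% of all probe sets), which stand for 6 genes, and 1 rose (3.33%, beside 21.7%). The median was -1.30, beside 0.71 in undamaged leaves. The 9 falls became 4 without the first array of 12 h and 5 without the third of 6 h. The change was lower with damage in 6 members (20%, beside 13.0% of all probe sets) and higher in 2 (6.67%, beside 17.9%). These 6 became from 2 to 21 when single arrays were left out, with 21 without the first undamaged array of 6 h. Gorai.009G175500.1 had 700, 822 and 850 at 6 h and 40.1, 332 and 166 at 12 h and fell by 2.60. It fell by 1.74 without the first array of 12 h and fell by 3.27 without the second. Gorai.007G151200.1, chosen after its values were seen, fell by 1.30 and rose by 1.87 without damage, and Gorai.002G250500.1 fell by 1.56 with damage and fell by 1.93 without. The rise was in 1 of 3 probe sets for Gorai.009G200600.1, by 4.25 with damage and 2.64 without. Damaged arrays of this probe set lay below the undamaged ones at both times. The probe sets of that gene disagreed, from -1.52 to 4.25.

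Terpenoids are made by the mevalonate pathway of the cytosol and the non-mevalonate pathway of the plastid. Of 52 measured probe sets for 37 genes, 15 rose (28.8%, beside 21.7% of all probe sets) and 10 fell (19.2%, near 18.8%). The change was higher with damage in 16 (30.8%, beside 17.9%) and lower in 9 (17.3%, beside 13.0%). The 9 became 4 without the second damaged or the first undamaged array of 12 h, and 5 without the third damaged array of 6 h or of 12 h. DXR, a reductoisomerase of the plastid route, went from 307, 223 and 182 to 626, 798 and 774, a rise of 1.65 against 0.72. Its other probe set rose by 1.19 with damage, with a difference from undamaged leaves of 0.31. HMGR, the reductase of the mevalonate route, rose by 1.59 with damage and 1.57 without in 1 of its 2 probe sets. The other rose by 1.00 with damage, with a difference from undamaged leaves of 1.26. Farnesyl diphosphate synthase, which makes the precursor of sesquiterpenes, went from 688, 1093 and 1203 to 559, 258 and 303, a fall of 1.46, and all 3 of its probe sets fell. Its difference from undamaged leaves, -1.81 (adjusted p = 0.0175 from limma), was not called without the second damaged array of 12 h (-1.58) or the first undamaged array of 12 h (-1.47). Of the listed genes without a name, Gorai.011G229300.1 rose by 2.54 against 1.18. Gorai.006G151900.1 rose by 2.38, with 0.27 in undamaged leaves. Damaged arrays of both lay below the undamaged ones at both times, with 6 h means of 283 and 156 beside 1058 and 902.

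**Figure D5:**
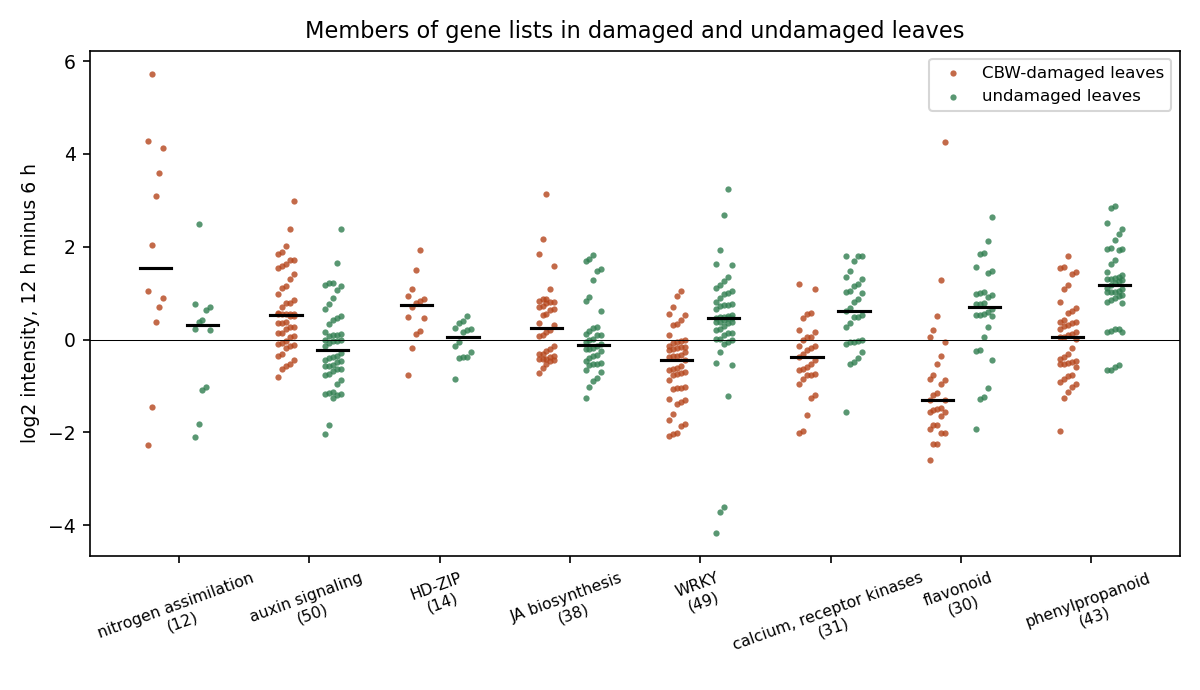
Change from 6 h to 12 h (log2 intensity) of every measured probe set in 8 lists, with damaged leaves in brown and undamaged leaves in green, numbers of probe sets in brackets and black bars for medians. Nitrogen assimilation and auxin signalling lie higher with damage (medians 1.55 and 0.53, beside 0.31 and -0.22), and WRKY, flavonoid and phenylpropanoid probe sets lie lower (medians -0.43, -1.30 and 0.06, beside 0.47, 0.71 and 1.17).

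Of the 15 genes that the study picked for qPCR, 3 rose and 3 fell on the arrays between 6 h and 12 h of feeding. Each count is 20%, near the 21.7% and 18.8% of all probe sets. The rises were HMGR and JMT, described above, and lipoxygenase Gorai.009G071200.1. The falls were farnesyl diphosphate synthase, L-lactate dehydrogenase (-1.36), an enzyme of pyruvate metabolism, and MPDC (-0.57), the decarboxylase of the mevalonate route. The call for MPDC was lost without the third array of 12 h (-0.46, adjusted p = 0.0563 from limma). A (+)-delta-cadinene synthase of another gene, Gorai.009G428400.1, had 120, 252 and 34.7 at 6 h and 692, 336 and 125 at 12 h, which overlap. It was not called (1.60, adjusted p = 0.0766 from limma), but was without the third array of 12 h or the second of 6 h (2.25 in both). In undamaged leaves it fell by 2.09, and the changes differed by 3.69 (adjusted p = 0.00915 from limma), or by 1.04 with low intensities raised to a floor (adjusted p = 0.182). Farnesyl diphosphate farnesyltransferase, which opens the sterol branch, was not called either (0.75, adjusted p = 0.0747 from limma), but was without the first array of 12 h (1.10).

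The other genes of that set were not called in damaged leaves. Naringenin 3-dioxygenase, of flavonoid synthesis, went from 1127, 1019 and 901 to 207, 582 and 408 and leucoanthocyanidin dioxygenase, of anthocyanin synthesis, from 7097, 7216 and 9038 to 554, 5250 and 3475. Neither pair of groups overlapped (-1.46 and -1.84, adjusted p = 0.102 and 0.17 from limma, or 0.0164 for naringenin 3-dioxygenase in a fit of only the 6 damaged arrays). DXS, the entry enzyme of the plastid route, had -0.37, HMGS, of the mevalonate route, -0.27, MCT, also of the plastid route, 0.06, and pinene synthase, which makes a volatile monoterpene, 0.22.

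Of 144 measured stress-related probe sets for 108 genes, 28 rose (19.4%) and 22 fell (15.3%), both near the shares of all probe sets. The change was higher with damage in 34 (23.6%, beside 17.9% of all probe sets) and lower in 33 (22.9%, beside 13.0%). Markers of leaf and seed were few among named probe sets. The single measured leaf marker, a chlorophyll a-b binding protein, had 0.35 and was not called, and none of 5 seed storage and late embryogenesis probe sets was called by limma (median -0.55), with 0 at an unadjusted p under 0.05. No measured probe set bears a name of the cell cycle markers. Probe sets with values at one time alone could not be compared: 820 had values at 6 h and not at 12 h, with a median intensity in damaged leaves of 61.9, and 596 had values at 12 h and not at 6 h, with a median of 64.2. These medians lie well below those of all probe sets with values, 368 at 6 h and 381 at 12 h. The sources do not state the rule by which values were left out. Descriptive names were at hand for 26 of the 305 rises and 13 of the 149 falls of at least 4-fold, so the genes described stand for a small share of those that changed most.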

How the data were processed

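Leaves were hybridised to 24 Affymetrix Cotton GeneChip arrays, 3 for each of control and CBW-damaged leaves at 4 times. The authors deposited linear intensity values computed by MAS5. The sources used here give neither the scaling target nor the rule for missing values, which at any one time are missing from all 6 arrays together, and no detection calls were used. The labels speak of dye pairs, whereas the array label is biotin, and each array was read as 1 channel. The labels and the paper differ on the number of larvae and the kind of bag. The paper describes 3 replicate treatments and controls at each time, with 3 plants to a pot. Whether these replicates were sown or treated on separate occasions is not stated, so p-values measure the spread between these samples. Precision is limited by 3 arrays per group.

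Intensities were taken to log2 without a pseudocount and fitted with limma 3.58.1 in R 4.3.3 over 8 groups of 24 arrays (16 residual degrees of freedom for 13341 probe sets, 12 for 319 and 8 for 147). Contrasts were 12 h minus 6 h in damaged leaves, the same in undamaged leaves, and their difference, each adjusted by the Benjamini-Hochberg method over 13807 probe sets. The procedure was tested on simulated data. Alternatives were quantile normalization, arrays centred on their median, a floor at the 20th percentile of each array, only probe sets at or above the median level, only the arrays compared, a replicate block, a trend with robust spread, and leaving out each array.

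Genes were named by a rule. The 10 largest rises and falls, and the 4 largest of each that also differed from undamaged leaves, had to pass filters. These were a limma call in damaged leaves, arrays without overlap, a mean intensity of 200 in the higher group and a name in the sources. Without these filters the rule added up to 3 per list by smallest p, and the 15 qPCR genes. Not all list members so picked are described, and 77 probe sets of the rule are in the text. The 14 probe sets outside this rule are said to be chosen after their values were seen. The lists and genes were chosen with earlier results of these data known. Names came from 1028 rows of a shortened table of the paper (842 probe sets), figure labels (46) and the platform annotation (696, all matched to the current gene table). Columns of fold changes from the paper were not used. Promoter sequences were not analysed here.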

Additional observations from a re-analysis of the deposited data

Results flagged for a closer look

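The change from 6 h to 12 h differed between damaged and undamaged leaves in limma's test of the difference for 4263 probe sets, higher with damage in 2469 and lower in 1794. The values below are the log2 change in damaged leaves minus that in undamaged leaves for the described genes to which this applied. A positive value can stand for a larger rise or for a smaller fall. A larger rise can start from a 6 h level below that of undamaged leaves, as in CO-like Gorai.004G102000.1.

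Among the genes that rose in both kinds of leaf, the difference was 1.59 for GhiAffx.25763.1.S1_x_at, 1.42 for GhiAffx.48034.1.S1_at, 2.17 for LOC107942112, 2.65 for Dof Gorai.008G193700.1 and 0.58 for Dof Gorai.007G079300.1. It was 1.31 for CO-like Gorai.004G102000.1, 1.64 for CO-like Gorai.010G245200.1, 0.96 for DBB Gorai.006G229300.1 and 0.94 for bHLH Gorai.008G106900.1. Smaller falls with damage gave 1.71 for CO-like Gorai.002G022300.1 and 1.67 for WRKY Gorai.007G122300.1. The value for Dof Gorai.007G079300.1 was no longer called with quantile normalization (0.37), with the floor (0.18), or without the second damaged array of 6 h or 12 h or the first undamaged array of 6 h or 12 h (0.46 to 0.54).

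Among genes that rose with damage, the difference was 6.81 for glutamine-dependent asparagine synthase 1, 3.63 for asparagine synthetase Gorai.006G105200.1 and 3.06 for glutamate dehydrogenase Gorai.004G244400.1. It was 3.57 for the short chain alcohol dehydrogenase, 5.07 for beta-galactosidase Gorai.001G011600.1, 2.62 for beta-galactosidase 1, 2.56 for anthranilate synthase and 2.23 for myo-inositol oxygenase 1. Defence and wall genes gave 4.11 for the Kunitz inhibitor, 1.78 for the 21 kDa trypsin inhibitor, 2.80 for arginine decarboxylase and 2.93 for Expansin-like B1. Non-yellowing 1 gave 2.83 and beta-amylase 1 gave 1.21. The calls for the 21 kDa trypsin inhibitor and arginine decarboxylase were lost in a fit of only the 12 arrays of 6 h and 12 h (adjusted p = 0.0739 and 0.106 from limma) and without single arrays. For the 21 kDa trypsin inhibitor these were any one array other than the first of each damaged group and the third of each undamaged group (1.39 to 1.78), and quantile normalization gave 1.61. For arginine decarboxylase they were the second or the third damaged array of 12 h, the third damaged array of 6 h, the first or second undamaged array of 12 h and the first undamaged array of 6 h (1.70 to 2.91).

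Factors with a higher change were NAC Gorai.012G125500.1 (2.23), C2H2 Gorai.003G016200.1 (1.47) and HD-ZIP Gorai.007G029200.1 (1.76). Hormone genes with a higher change were gibberellin 3-beta-dioxygenase (2.28), auxin signaling Gorai.004G044200.1 (1.82), GH3 (1.19) and auxin response factor Gorai.009G196100.1 (3.73). JMT was called in 1 of its 2 probe sets (2.52) and not in the other (1.34). In secondary metabolism the genes were DXR (0.93, with 0.31 in its other probe set), terpenoid Gorai.011G229300.1 (1.36) and terpenoid Gorai.006G151900.1 (2.12). The others there were (+)-delta-cadinene synthase Gorai.009G428400.1 (3.69), flavonoid Gorai.009G200600.1 (1.61) and DXS (1.12).

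The change was lower with damage for WRKY Gorai.013G008300.1 (-2.37), the AP2/ERF factor Gorai.001G019100.1 (-2.94), GRAS Gorai.009G098100.1 (-2.66), KAO (-1.55) and Lipoxygenase 3 (-1.72). Calcium and kinase genes gave -3.47 for autoinhibited calcium ATPase, -1.96 for the calmodulin-binding family protein, -1.47 for the calcium-dependent protein kinase, -2.28 for receptor-like kinase Gorai.008G006500.1 and -3.66 for PBP1-like. Carrot EP3-3 chitinase gave -1.83, bacterial-induced peroxidase -4.06, basic 7S globulin -3.57 and the nucleotide-diphospho-sugar transferase -2.35. In secondary metabolism the values were -4.89 for (+)-delta-cadinene synthase Gorai.013G164900.1, -1.81 for farnesyl diphosphate synthase, -0.73 for MPDC, -1.44 for farnesyl diphosphate farnesyltransferase, -2.27 for phenylalanine ammonia-lyase, -3.17 for flavonoid Gorai.007G151200.1 and -1.31 for phenylpropanoid Gorai.008G022800.1. L-lactate dehydrogenase gave -2.00. With only the 12 arrays of 6 h and 12 h, the calls for MPDC, farnesyl diphosphate farnesyltransferase and DXS were lost (adjusted p = 0.0832, 0.0766 and 0.0811 from limma). MPDC also lost it without the second or the third damaged array of 12 h, the third damaged array of 6 h or the first undamaged array of either time (-0.70 to -0.52), and DXS without the second damaged array of 12 h (1.00). Farnesyl diphosphate farnesyltransferase lost it with the floor (-0.61), without the first damaged array of 12 h, the second damaged array of 6 h, the second undamaged array of either time or the third undamaged array of 6 h (-1.39 to -1.08).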

How the results depend on the processing

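Of the 5591 probe sets called in damaged leaves, 5290 kept their call and direction with quantile normalization, 5408 with centred arrays, 5000 with the floor, 4546 with only the 6 arrays and 5529 with a trend and robust spread. None was called in the opposite direction. Of the 4263 called for the difference, 3968, 3997 and 3762 kept their call with quantile normalization, centred arrays and the floor, 3100 with only the 12 arrays and 4204 with a trend and robust spread, and 15 were called in the opposite direction with the floor. Rises made up 53.5% of the calls, 48.4% with quantile normalization and 49.9% with centred arrays. Keeping only probe sets at or above the median level, which tests fewer of them, gave 1766 rises and 1461 falls in damaged leaves (163 and 65 of at least 4-fold), 1569 and 1721 in undamaged leaves (168 and 127), and 1585 higher and 1067 lower differences (95 and 135). A fit of only the 6 undamaged arrays gave 1840 rises and 2049 falls there; the cause was not tested.

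When single arrays were left out, rises in damaged leaves ranged from 2334 to 3125 and falls from 2072 to 2430, with 284 to 337 and 137 to 165 of at least 4-fold. In undamaged leaves the ranges were 2441 to 2635 and 2666 to 2973, with 321 to 348 and 237 to 294. Higher differences ranged from 1805 to 2824 and lower ones from 1411 to 1884, with 167 to 234 and 211 to 296 of at least 4-fold.

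The replicate numbers did not pair the samples throughout. Correlations of the deviations of same-numbered arrays were 0.05, -0.15 and 0.12 between damaged leaves of 6 h and 12 h, -0.51, -0.42 and -0.17 between undamaged leaves of 6 h and 12 h, and -0.14, -0.17 and 0.20 between damaged and undamaged leaves of 6 h. Between damaged and undamaged leaves of 12 h they were 0.52, 0.29 and 0.20, all above 0.1. With the number as a replicate block there were 2904 rises and 2531 falls in damaged leaves (305 and 148 of at least 4-fold), 2741 and 3149 in undamaged leaves (319 and 256), and 2401 higher and 1739 lower differences (192 and 260). The block changed no call among the described genes.

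Of the 81 described probe sets called in damaged leaves, 78 kept the call in every alternative in which they were tested, and of 61 called for the difference, 49 did. The floor, which raises intensities below the 20th percentile of an array (106 to 116 on the damaged arrays), turned the difference of the changes to -1.25 for CO-like Gorai.002G022300.1, -0.16 for GhiAffx.25763.1.S1_x_at, -0.018 for GhiAffx.48034.1.S1_at and -1.84 for the RING/FYVE/PHD protein, each of which has values below that level. Low intensities thus limit these differences, and detection calls were not used here.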
